A study of Chlamydomonas reinhardtii with 4 samples.

Results

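The comparison of a DNMT1 knockout with wild type (WT) in the mt− strain CC-5325 of Chlamydomonas reinhardtii, a unicellular green alga, rested on the H3K27ac peak lists of 2 of the 4 libraries of the series. These lists, labelled WT mt− and dnmt1 mt−, held 30388 of the 60364 peaks of all libraries. Both libraries came from vegetative cells of strain CC-5325, of mating type minus, grown in acetate medium under continuous light, and were precipitated with the same antibody against H3K27ac. Per the labels the libraries share an input control with a data set on H3K4me1. The WT mt− list had 15065 peaks and the dnmt1 mt− list 15323. How the knockout was made, and whether it is 1 clone, is not given in the sources used here. With 1 library a side no difference between genotypes was tested, and everything below describes these lists.

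H3K27ac is acetylation of a lysine in the tail of histone H3. Acetyltransferases place it on nucleosomes beside active promoters and enhancers, and it is widely used to map active regulatory DNA. DNMT1 is, in animals, the maintenance methyltransferase that copies CG methylation onto the new DNA strand after replication, and DNA methylation is generally associated with silent chromatin. In Chlamydomonas, cytosine methylation of nuclear DNA is sparse and is found in part at repeated sequences. The series concerns DNA methylation and recombination at the sex-determining region, which lies on chromosome 6 in this alga. The genome build of the lists is not given in the sources used here, so no peak of chromosome 6 was assigned to that region, none was assigned to a gene, and no bases are shown. The lists also name a separate sequence, mating_type_plus, on which both mt− libraries had 8 peaks, with 0 gained and 0 lost.

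The lists were much alike in size. WT mt− peaks covered 13.2 Mb and dnmt1 mt− peaks 13.4 Mb, with median widths of 826 and 818 bp. The median of the authors' fold enrichment over input at the summit was 5.39 in WT mt− and 5.83 in dnmt1 mt−, whereas the median −log10 q was 85.3 and 84.6. Fold enrichment and q values depend on library depth, which the lists do not give. Strength was therefore read as a rank, the percentile of a peak's −log10 q within its own list. Only 1 interval was identical in both lists.

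Partners were peaks that overlapped by at least 1 bp. Of all peaks, 14586 in each list formed one-to-one pairs, in which each peak overlapped exactly 1 peak of the other list. In 97 places a single WT peak overlapped several dnmt1 peaks, in 83 places several WT peaks overlapped a single dnmt1 peak, and in 1 place there were several of both. In dnmt1, 455 peaks were gained (2.97% of the list, exact 95% binomial interval 2.71 to 3.25). In WT, 209 peaks were lost (1.39%, 1.21 to 1.59). Such intervals take peaks as independent and reflect nothing but counting error. When the dnmt1 list was shortened to the length of the WT list by dropping its weakest peaks, 331 peaks were gained and 339 lost. This step takes peaks from 1 list only, which by itself removes gains and adds losses. When both lists were limited to −log10 q values from 10 upward, 428 peaks were gained and 228 lost. Of the gained and lost peaks of the full lists, 233 and 58 reached that value. The remainder had partners in the full lists that fell below the minimum.

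Most unpartnered peaks were weak and narrow, but gained peaks reached the top of the dnmt1 list and lost peaks did not reach the top of the WT list. Gained peaks had a median width of 335 bp (interquartile range 253 to 574) and a median fold enrichment of 2.31 (1.98 to 3.23). Lost peaks had a median width of 289 bp (244 to 361) and a median fold enrichment of 2.01 (1.85 to 2.29). Both groups were thus far below the medians of their lists. In all, 310 gained peaks (68.1%) and 184 lost peaks (88.0%) lay below percentile 10 of their list. At the other end, 14 gained peaks and 0 lost peaks ranked at the 75th percentile or above, and 8 gained peaks at the 90th or above. Gained peaks made up 20.2% of the dnmt1 peaks below percentile 10 and 0.391% of those at percentile 50 or above, and lost peaks 12.2% and 0.0398% of the same classes of the WT list.

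**Figure D1:**
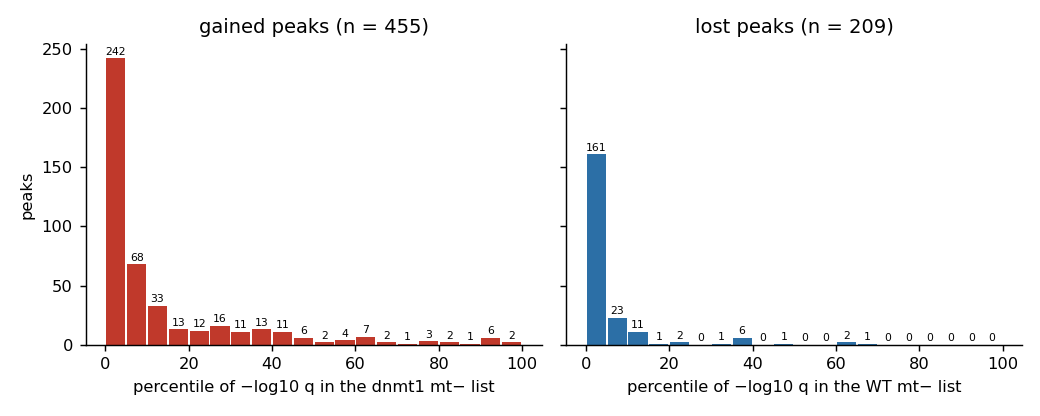
Number of gained peaks (left) and lost peaks (right) by the percentile of −log10 q within their own list, in bins of 5 points, with the count above each bar. The lowest bin holds 242 of the 455 gained and 161 of the 209 lost peaks, and the bins from 70 upward hold gained peaks only.

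The strongest gained peaks were as strong and wide as typical or leading peaks of the dnmt1 list, at places where the nearest WT peak was kilobases away. Chromosome 6, 4566842 to 4567820, came first, with 8.26-fold enrichment, a −log10 q of 161 and percentile 97.5, 8.05 kb from the nearest WT peak. Next came chromosome 3, 6978559 to 6980092, 1534 bp wide, with 8.09 at percentile 94.5, 5.72 kb from a WT peak. Chromosome 1, 1084711 to 1085748, had 7.75 at percentile 94.1, with a WT peak 4.28 kb away. All 3 had other gained peaks within 50 kb.

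Chromosome 6 held a second leading gain at 4538540 to 4539673, with a fold enrichment of 7.70 at percentile 95.5. The gain at chromosome 10, 3631213 to 3632453, had 7.23 at percentile 91.0 and 6 other gained peaks within 50 kb. On chromosome 7 a pair of gained peaks stood close together in a stretch poor in WT peaks. The peak at 3104797 to 3105604 had a fold enrichment of 7.16 at percentile 75.2, 12.5 kb from a WT peak. Its neighbour at 3097037 to 3098083 had 7.09 at percentile 94.1, 20.03 kb from one.

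The remaining leading gains showed that such peaks also occurred alone or in dense surroundings. The gain at chromosome 14, 2264880 to 2265859, had a fold enrichment of 7.13 at percentile 90.7 and 0 other gained peaks within 50 kb, and lay 29.0 kb from the nearest WT peak. At chromosome 3, 7152419 to 7153275, the value was 7.12 at percentile 79.4, with 7 other gains within 50 kb. The last of the 10, at chromosome 15, 2757303 to 2758098, had 6.91 at percentile 60.7 and lay among 30 WT peaks within 50 kb.

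The strongest lost peaks were weaker and fewer, and 7 of the 10 were on chromosomes 15 and 17. On chromosome 17 the peak at 4536957 to 4537444 had a fold enrichment of 6.74 at percentile 64.6 of the WT list. The peak at chromosome 7, 107439 to 108265, had 6.42 at percentile 65.7, the highest rank of any lost peak. Chromosome 17 also lost 5246099 to 5247196, with 5.93 at percentile 61.6. No other lost peak reached percentile 50 of the WT list.

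Below these, chromosome 15, 1996961 to 1997552, had a fold enrichment of 5.003 at percentile 35.8, and the lost peak at chromosome 17, 4547426 to 4547842, had 4.54 at percentile 38.6. Another lost peak of chromosome 15, at 1984188 to 1984711, had 3.82 at percentile 22.3 and lay in the same short block as the first. The others of the 10 ranged in fold enrichment from 3.14 to 3.55. They lay at 575695 to 575961 of chromosome 17, at 499491 to 499929 of chromosome 6, at 22190 to 23382 of chromosome 15 and at 1760066 to 1760662 of chromosome 13. Only the chromosome 15 peak among them was wider than the list median, at 1193 bp.

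Gained peaks lay farther from the other list than lost peaks, at median distances of 3551 and 2031 bp, but most of both were near it. Within 10 kb lay 366 of 455 gained and 206 of 209 lost peaks, and 73 lost peaks lay within 1 kb. Of the gained peaks 98 lay within 1 kb of a WT peak, with a median fold enrichment of 2.14, while 85 lay more than 10 kb from any WT peak, with a median of 3.31 and a median width of 627 bp. The latter had no close counterpart among losses, since 3 of the 209 lost peaks lay more than 10 kb from a dnmt1 peak. A further 4 gained peaks lay on sequences without any WT peak, 3 of them on the mitochondrial sequence (fold enrichment 1.23 to 1.52) and 1 on contig_33.

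Gains and losses were found on each of the 17 chromosomes, with chromosome 15 highest for both. There, gains were 35 of 573 dnmt1 peaks (6.11%, exact interval 4.29 to 8.39) and losses 21 of 556 WT peaks (3.78%, 2.35 to 5.72), against 2.97% and 1.39% over all sequences. Both intervals lay above the shares over all sequences, although peaks in blocks are not independent. Chromosome 11 (4.46%), chromosome 5 (4.35%) and chromosome 17 (3.70%) followed for gains. Chromosome 4 (2.44%) and chromosome 17 (2.28%) followed for losses, and the intervals of chromosomes 11, 5 and 4 all included the share over all sequences.

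Chromosome 2 had the lowest share of gains (1.74%, 1.08 to 2.65) and chromosome 14 the lowest share of losses (0.575%, 0.119 to 1.67). Per megabase between the first and last peak, gains ran from 2.29 on chromosome 13 to 6.02 on chromosome 15. Sequences other than numbered chromosomes had 17 gained of 151 peaks (11.3%, 6.70 to 17.4) and 4 lost of 138 (2.90%, 0.795 to 7.26). Within 50 kb of the outermost peaks of a chromosome lay 19 of 438 gained peaks (4.34%, 2.63 to 6.69) and 13 of 205 lost peaks (6.34%, 3.42 to 10.6), against 1.71% of all dnmt1 and 1.72% of all WT peaks.

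**Figure D2:**
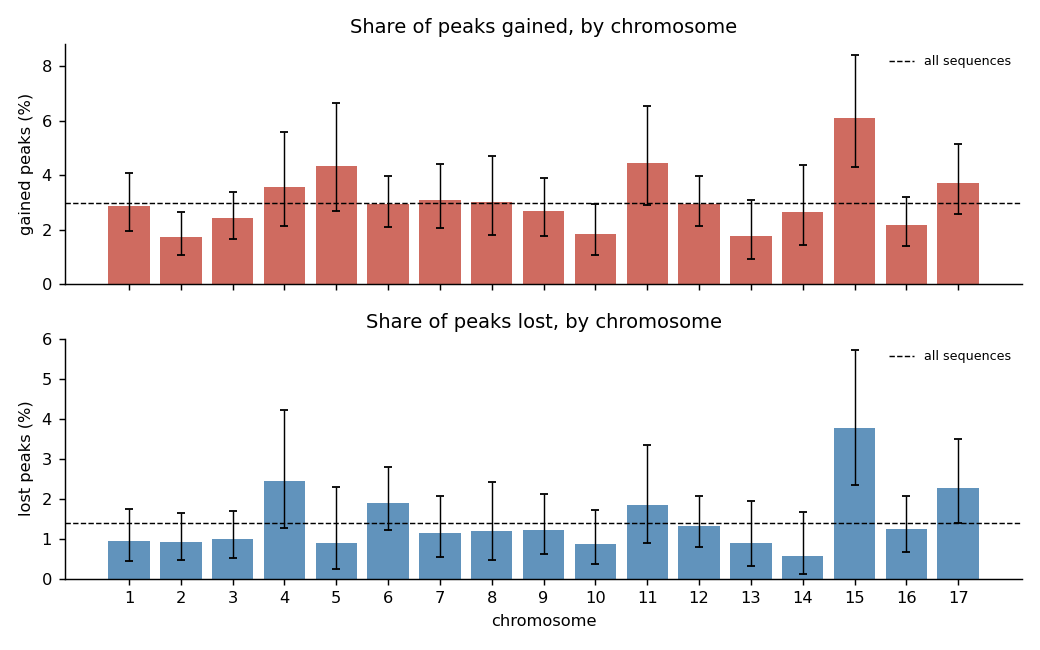
Percentage of dnmt1 mt− peaks gained (top) and of WT mt− peaks lost (bottom) on each chromosome, with exact 95% binomial intervals for counting error and a dashed line at the share over all sequences (2.97% and 1.39%). Chromosome 15 is the highest in both panels, at 6.11% and 3.78%.

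Gained peaks formed blocks far more often than lost peaks did. A block was a run of 3 or more gained (or lost) peaks, each within 50 kb of the next. There were 34 blocks of gained peaks with 188 peaks (41.3% of gains) and 5 blocks of lost peaks with 20 peaks (9.57% of losses). Of the gained blocks, 1 lay on contig_20 and 1 on the mitochondrial sequence, each with 3 gained peaks. On numbered chromosomes alone 182 gained peaks were in blocks. All gained blocks, these included, spanned 2.21 Mb. WT peaks stood there at 7.55 per 100 kb against 13.4 over the chromosomes, and dnmt1 peaks at 15.7 per 100 kb against 13.6. Since blocks were chosen as runs of dnmt1 peaks without WT partners, the lower WT density and the higher dnmt1 density are both set in part by that choice. Gains were also more numerous than losses, and more numerous peaks fall within a fixed distance of each other more often.

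The largest block, at chromosome 3, 6978559 to 7161616, held 17 gained peaks with fold enrichments of 2.04 to 8.09, where WT had 3 peaks. The block at chromosome 10, 3581556 to 3741540, held 13 (1.82 to 7.23) beside 2 WT peaks. On chromosome 9, 4248711 to 4358408 held 10 (2.08 to 6.30) beside 2 WT peaks. In each of these stretches the dnmt1 list had at least 5 times as many peaks as the WT list.

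Blocks with more WT peaks were found on chromosome 4, where 852360 to 934219 held 10 gained peaks (1.53 to 5.59) and 6 WT peaks, and on chromosome 7, where 3056942 to 3194355 held 9 (3.44 to 7.16) and 7. On chromosome 12, 6650142 to 6781780 held 8 (2.82 to 6.14) and 11, and on chromosome 1, 1157708 to 1287989 held 8 (2.13 to 5.26) and 2. The chromosome 11 block at 2874884 to 2971975 held 7 gained peaks (2.09 to 2.84) and 2 WT peaks. A block at chromosome 17, 6037053 to 6076538, held 6 (1.92 to 5.57) and 2. Of these, the chromosome 11 block was the only one without a fold enrichment above 5.

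A pair of gained blocks held weak gained peaks in or beside rows of closely spaced peaks. On chromosome 5, 3629545 to 3653980, 12 gained peaks followed each other at a median distance of 1954 bp between summits (1818 to 4212), with fold enrichments of 1.71 to 2.42 and ranks below the 7th percentile, and WT had 0 peaks. On chromosome 6, 698518 to 783885, 6 gained peaks of 1.63 to 2.02 lay beside 30 WT peaks, among them stronger ones such as 712877 with 6.88 at percentile 84.3. From 748801 onward that block was a row of weak peaks present in both lists, 23 in WT at a median distance of 1201 bp and 26 in dnmt1 at 1187 bp, with 22 pairs in common. The 4 gained and 1 lost peaks of this row had fold enrichments of 1.63 to 2.02, and the gained ones were 2477 to 14535 bp apart. The evenly spaced stretches, here and below, were picked after their values were seen. Regular spacing is a feature of tandem repeats, in which reads of near-identical copies cannot be placed with certainty, and how such reads were treated is not given in the sources used here.

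Lost peaks formed 1 block of 6 or more, at chromosome 12, 2609668 to 2723999, with 6 lost peaks of fold enrichment 1.77 to 2.502 among 26 WT peaks. A more regular pattern was seen at the start of chromosome 15, from 9343 to 61940. WT had 9 peaks there in 2 interleaved series. The 5 peaks of the wider series, 1170 to 1211 bp, had summits 12842 to 12861 bp apart and fold enrichments of 2.91 to 3.26, and all were lost in dnmt1. The 4 peaks of the narrower series, 850 to 922 bp, had summits 12752 to 12933 bp apart and kept their partners.

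In dnmt1 these 4 partners were narrower, at 664 to 698 bp, and their fold enrichment was 4.54 to 5.89 against 2.67 to 3.07 in WT. Their ranks were at percentiles 58.3 to 81.9 in dnmt1 and 36.0 to 46.2 in WT. All 4 were thus narrower and higher in rank, with no overlap between the lists. Near the end of chromosome 3, from 9236848 to 9277499, 3 of 6 WT peaks were lost (fold enrichment 1.85 to 2.72), but without even spacing, since neighbouring summits were 4573 to 12556 bp apart. The 3 that kept a partner were 874 to 908 bp wide in WT and 644 to 832 bp in dnmt1, with fold enrichments of 2.60 to 3.202 and of 3.37 to 5.25.

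Among the one-to-one pairs widths hardly moved as a whole. The median shift in width, dnmt1 minus WT, was 1 bp, with an interquartile range of -37 to 42 bp, and 50.6% of pairs were wider and 48.7% narrower in dnmt1. In 47.0% of pairs one edge lay farther out and the other farther in. Median shifts by chromosome ran from -5 bp on chromosome 7 to 8 bp on chromosome 8. Widening by 1.5-fold or more was seen in 174 pairs (1.19%, exact interval 1.02 to 1.38) and narrowing by 1.5-fold or more in 74 (0.507%, 0.399 to 0.637). These counts moved with the choice of peaks. Where −log10 q had to reach 10, 42 pairs narrowed and 116 widened. Among pairs with no other peak within 1 kb, 49 narrowed and 114 widened.

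Widening by 1.5-fold or more was seen mostly in narrow peaks, and narrowing was spread over more widths. Of the 1734 pairs with a WT width under 500 bp, 8.02% widened and 1.90% narrowed by 1.5-fold or more, against 0.41% and 0.397% of the 8302 pairs of 500 to 1000 bp, and 0.0226% and 0.181% of the 4424 pairs of 1000 to 2000 bp. These classes held 139, 34 and 1 of the widened pairs and 33, 33 and 8 of the narrowed ones. A fold threshold asks for fewer base pairs in a narrow peak. Classing by WT width favours widening among narrow peaks by construction. Classed by the mean of both ranks, which favours neither list, pairs up to percentile 10 had 7.57% widened and 4.34% narrowed, and the next 10 points 2.72% and 0.681%. Chromosome 15 had the highest share of widened pairs (2.39%) and chromosome 2 the lowest (0.513%).

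The pair that widened most, by 6.38-fold, was at chromosome 9, 4349802 to 4350021 in WT and 4348821 to 4350223 in dnmt1. Its width was 220 bp in WT and 1403 bp in dnmt1, and its fold enrichment 2.80 and 6.32. The next, at chromosome 15, 2329563 to 2329879, was 317 bp in WT and 1498 bp in dnmt1. Both grew at both edges.

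The others of the 5 were at chromosome 16, 5307863 to 5308135 (273 and 974 bp), chromosome 1, 1254576 to 1254865 (290 and 1023 bp), and chromosome 7, 3174220 to 3174504 (285 and 900 bp). The pairs of chromosomes 9, 1 and 7 lay inside gained blocks. The chromosome 16 pair lay 617 kb from the nearest gained peak, and its fold enrichment was 2.32 in WT and 2.64 in dnmt1.

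The pairs that narrowed most lay outside gained blocks. At chromosome 17, 2363071 to 2363725, the width was 655 bp in WT and 224 bp in dnmt1. At chromosome 12, 3071513 to 3072394, it was 882 and 316 bp. At chromosome 15, 141766 to 142980, it was 1215 and 444 bp, while the fold enrichment was 2.84 in WT and 4.54 in dnmt1. Its rank was percentile 30.2 in WT and 27.2 in dnmt1, so fold enrichment and rank moved in opposite directions. The remaining pair of places were chromosome 3, 2075369 to 2076159 (791 and 324 bp), and chromosome 12, 8842481 to 8843085 (605 and 254 bp).

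Summits stayed close. The median distance between the summits of a pair was 34 bp (interquartile range 14 to 70), 63.5% of pairs had summits within 50 bp, and 122 pairs had them on the same base. Shifts were even in direction, with 7173 summits at a higher and 7291 at a lower coordinate in dnmt1. Summits were over 200 bp apart in 729 pairs (5%, exact interval 4.65 to 5.36), and by chromosome this share ran from 4.42% to 6.51%. It rose with width: 1.15% of pairs under 500 bp wide in WT, 1.95% at 500 to 1000 bp, 11.8% at 1000 to 2000 bp and 21.4% of the 126 pairs at 2000 bp or more. Narrow peaks leave little room for summits over 200 bp apart, so this rise is set in part by the fixed threshold.

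**Figure D3:**
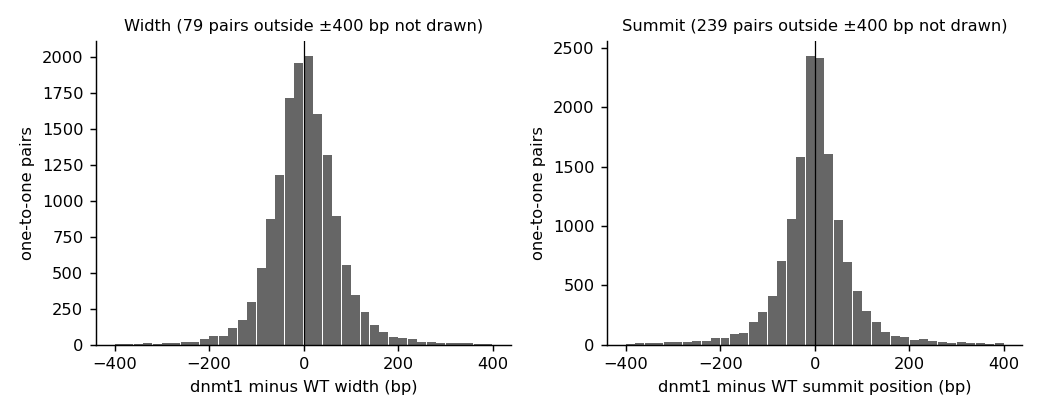
Distribution over 14586 one-to-one pairs of the shift in width (left) and in summit position (right), dnmt1 mt− minus WT mt−, in bins of 20 bp. Both are centred near 0, with medians of 1 bp and 0 bp, and the 79 and 239 pairs beyond 400 bp are not drawn.

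The farthest summit moves were within wide peaks whose edges hardly changed. At chromosome 5, 796625 to 799440, the summit lay 1407 bp farther along in dnmt1, at 798468 against 797061, in a peak of 2816 bp in WT and 2856 bp in dnmt1. At chromosome 12, 5161179 to 5163336, it lay 1346 bp back, in a peak of 2158 and 2195 bp. Next were chromosome 2, 4533126 to 4534906 (1194 bp), chromosome 5, 1086035 to 1087958 (1167 bp), and chromosome 2, 7532673 to 7535946 (1124 bp). In all 5 the width differed by less than 90 bp between the lists. Of the 174 widened pairs 13 had summits over 200 bp apart (7.47%, against 5% of all pairs).

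Ranks shifted in both directions. The median size of a rank shift, up or down, was 6.12 percentile points and its standard deviation over pairs 11.4 points. In dnmt1, 2428 pairs stood 10 points or more higher (16.6%, exact interval 16.0 to 17.3) and 2164 pairs 10 points or more lower (14.8%, 14.3 to 15.4). Ranking by fold enrichment gave 3361 and 3112. With percentiles taken over one-to-one partners only, 2324 pairs stood higher and 2353 lower, and with lists of equal length 2236 and 2402. Which of the counts was larger thus depended on the peaks that were ranked. With no replicate library, the size of rank shifts between libraries of a single genotype is not known.

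The order at the top was loosely kept. Of the 100 strongest WT peaks and the 100 strongest dnmt1 peaks, 32 pairs were in both, and of the 1000 strongest, 539. The lowest dnmt1 rank of a one-to-one pair from the WT top 100 was percentile 77.5. By chromosome the median rank shift ran from -0.37 points on chromosome 1 to 0.86 points on chromosome 13. Chromosome 6 (12.0%), chromosome 9 (12.3%) and chromosome 15 (12.5%) had the lowest shares of pairs 10 points or more lower, against 14.8% of all pairs.

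The largest rises were larger than the largest falls. Rises of 50 points or more numbered 14 and falls of that size 0, while rises and falls of 30 points or more numbered 165 and 92. The leading rise, of 87.8 points, was at chromosome 17, 6061632 to 6061988. This peak was 357 bp wide with a fold enrichment of 2.45 in WT, and 1034 bp wide with 7.49 in dnmt1. At chromosome 15, 2657326 to 2657908, the fold enrichment was 2.97 in WT and 8.70 in dnmt1, a rise of 84.1 points.

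Chromosome 9, 4253345 to 4253630, rose by 71.9 points, with fold enrichments of 2.46 in WT and 6.96 in dnmt1. The pair at chromosome 7, 3137767 to 3138115, rose by 64.9 points (3.27 and 6.81), and that at chromosome 1, 1070818 to 1071241, by 63.4 points (4.32 and 7.93). All 5 were narrower than 600 bp in WT and more than 2-fold wider in dnmt1. Those of chromosomes 17, 9 and 7 lay inside gained blocks.

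The largest falls began at high ranks, as the largest rises began at low ones, which a scale with fixed ends brings about by itself. The leading fall, of 48.6 points, was at chromosome 5, 2747694 to 2748922, where enrichment was 7.91-fold in WT and 5.07-fold in dnmt1 and widths of 1229 and 1158 bp. Chromosome 5, 1124098 to 1125343, fell by 46.8 points (6.27 and 4.31). At chromosome 4, 561797 to 562410, the fall was 46.6 points (5.999 and 3.77), and at 1355285 to 1356002 of that chromosome it was 46.0 points (6.80 and 4.31). The last, chromosome 12, 1374687 to 1375450, fell by 44.9 points (4.98 and 4.13). Each of the 5 was narrower in dnmt1. Of all pairs that fell by 30 points or more, 20.7% lay within 50 kb of a gained peak, close to the 22.8% of all pairs.

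**Figure D4:**
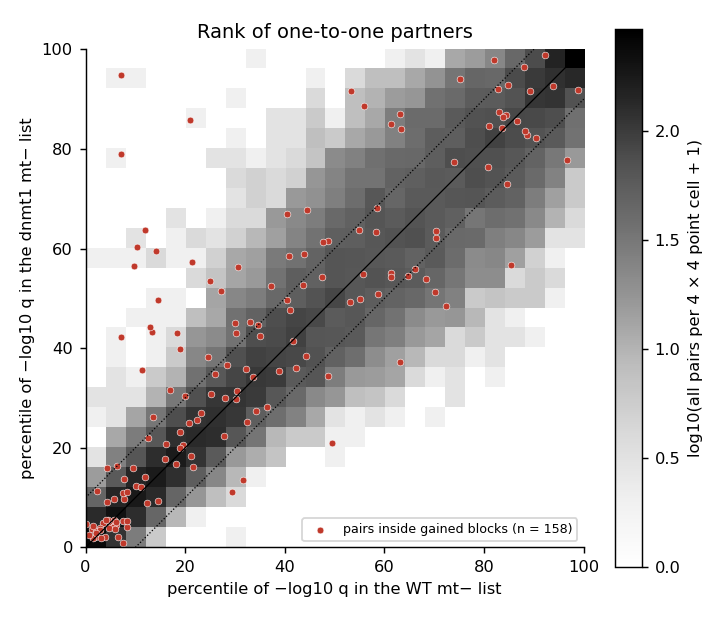
Percentile of −log10 q in dnmt1 mt− against that in WT mt− for one-to-one pairs. Grey cells give the number of all pairs on a log10 scale, red points are the 158 pairs inside gained blocks, the solid line marks equal rank and the dotted lines a shift of 10 points. The red points farthest from the line are above it, at low WT ranks, up to a rise of 87.8 points.

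Peaks that were present in both lists inside gained blocks were wider, and many ranked higher, in dnmt1. Gained blocks held 158 one-to-one pairs, of which 70.9% were wider in dnmt1, against 50.4% of the 14428 pairs elsewhere. Their median shift in width was 43.5 bp (interquartile range -11.8 to 141), against 1 bp. Widening by 1.5-fold or more was seen in 25 of the 158 (15.8%), against 1.03% elsewhere and 1.19% of all pairs, so blocks with 1.08% of all pairs held 14.4% of the widened ones. Both edges lay farther out in 44.3% of block pairs and 25.7% of the others.

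Rank moved in the same direction. In the blocks 26.6% of pairs stood 10 points or more higher and 8.23% lower, against 16.5% and 14.9% elsewhere, and 13 pairs rose by 30 points or more while 0 fell by as much. The median rank shift was 2.41 points in the blocks and 0.20 points elsewhere. Narrowing by 1.5-fold or more (0.633% and 0.506%) and summits over 200 bp apart (6.33% and 4.98%) were close to the shares elsewhere. With lists of equal length the blocks held 81 pairs, with a median width shift of 95 bp and a median rank shift of 7.38 points. With neighbours within 20 kb they held 63 pairs, with 31 bp and 1.87 points. The rise in rank was not particular to gained blocks. Of the 37 pairs inside lost blocks 32.4% stood 10 points or more higher and 2.70% lower. Their median rank shift was 3.37 points and their median width shift -4 bp.

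Pairs inside gained blocks were weaker in WT than others, with a median WT rank at percentile 27.9 against 51.0. Pairs of like WT rank were therefore set side by side. At WT ranks up to percentile 25, 28.0% of 75 block pairs and 3.91% of 3405 other pairs widened by 1.5-fold or more, and the median shifts in width were 71 and 11 bp. Even in this class block pairs were weaker, at a median WT percentile of 8.24 against 13.2. From there to percentile 50 the median shifts in width were 13.5 bp for 38 block pairs and 4 bp for 3657 others, and the median rank shifts 6.75 and 1.43 points. Above it, a median width shift of 30 bp for 45 block pairs stood against -4 bp for 7366 others, while the median rank shifts were -0.94 and -1.31 points. The median shift in width was larger in the blocks in each of these classes of WT rank. Blocks were chosen as runs of dnmt1 peaks without WT partners, so shifts towards dnmt1 inside them may be set in part by that choice. Setting pairs of like WT rank side by side does not remove it.

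The blocks differed among themselves. In the chromosome 7 block all 7 pairs were wider in dnmt1 and 6 of 7 ranked higher, with median widths of 361 bp in WT and 900 bp in dnmt1 and median fold enrichments of 2.81 and 5.52. On chromosome 9 the 2 pairs rose by a median of 60.9 points, and in the chromosome 1 block at 1157708 the 2 pairs rose by a median of 48.5 points. In the chromosome 17 block 2 of 2 pairs were wider, from a median of 417 to 963 bp.

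Other blocks showed smaller shifts, or the opposite direction in width or in rank. In the blocks at 1879364 of chromosome 11, 2062177 of chromosome 8 and 4466954 of chromosome 16, narrower pairs were 4 of 5, 5 of 8 and 5 of 8. The first of these had 4 of 5 pairs higher in rank. On contig_20 the median width shift was -30 bp and the median rank shift 4.64 points. On chromosome 2 ranks were lower in 8 of 13 pairs, while 9 of 13 were wider. The chromosome 4 block had 5 of 6 pairs wider and 5 of 6 higher in rank, with a median rise of 6.70 points. The chromosome 12 block had 9 of 11 wider and 7 of 11 higher in rank, with the largest gains in width, of 998 and 871 bp, at 6667223 to 6669336 and at 6721242 to 6721743. The chromosome 6 block at 698518, which held the row of weak peaks and 29 of the 158 pairs, had a median rank shift of 0.13 points with 15 pairs higher and 14 lower. On chromosome 3, 1 of 3 pairs rose by over 10 points, at 6990660 to 6991190, where enrichment was 2.26-fold in WT and 5.31-fold in dnmt1. Without the chromosome 6 block the median rank shift of block pairs was 4.14 points.

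Shares were also read by distance, block pairs included. Pairs within 2 kb of a gained peak widened by 1.5-fold or more in 6.94% of 173 cases, those at 2 to 10 kb in 3.39% of 649, and those over 200 kb away in 0.650% of 5842. Pairs near gained peaks were weaker in WT, with a median percentile of 30.6 within 2 kb and 52.0 beyond 200 kb. With block pairs removed and WT ranks up to percentile 25, a choice made after values were seen, widened shares were 5.44% of 239 pairs within 10 kb, 5.33% of 619 at 10 to 50 kb and 3.42% of 2547 farther away. The fall with distance was thus smaller in this setting. For distance to a lost peak the unmatched shares were 3.17% of 126, 0.450% of 444 and 1.10% of 7371. Narrowing was seen in 2.38% of pairs within 2 kb of a lost peak and in 1.16% of pairs within 2 kb of a gained peak. The counts behind the nearest classes are small, and neighbouring peaks share local signal and input, so they are not independent.

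**Figure D5:**
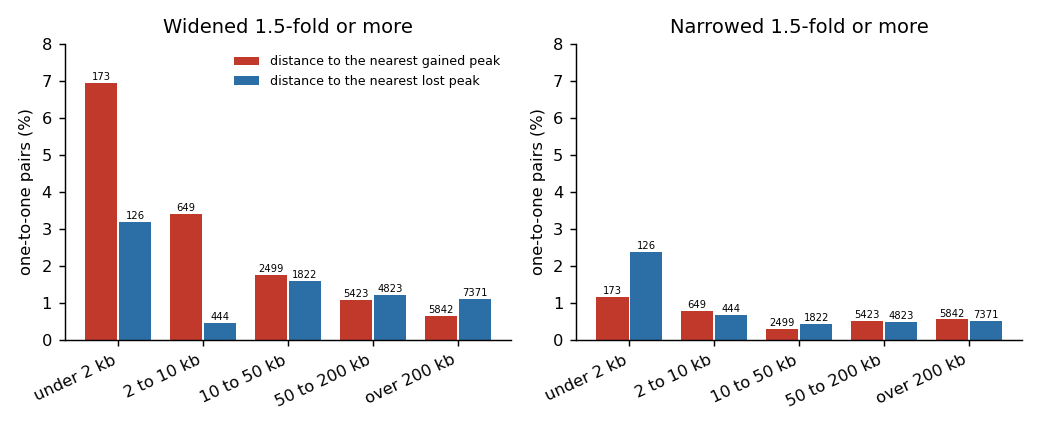
Percentage of one-to-one pairs widened (left) or narrowed (right) by 1.5-fold or more in dnmt1 mt−, by distance to the nearest gained peak (red) or lost peak (blue), with the number of pairs above each bar. The widened share falls from 6.94% within 2 kb of a gained peak to 0.650% beyond 200 kb.

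Windows of 200 kb placed the shifts along the chromosomes. In 548 windows with at least 10 pairs the median rank shift ran from -9.39 to 13.0 points and the median width shift from -46 to 277 bp. The window with the highest median rank shift was chromosome 6, 4400001 to 4600000, where 11 of 11 pairs ranked higher and 9 peaks were gained. Chromosome 9, 4200001 to 4400000, had 11 of 12 pairs higher (median 8.68 points) and 10 gained peaks. Both were also among the 5 windows with the largest width shift.

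Not every high window had gains. Chromosome 14, 2000001 to 2200000 (8.68 points, 18 of 23 pairs higher), had 2 gained peaks, chromosome 3, 6400001 to 6600000 (7.11 points, 25 of 32), had 1, and chromosome 8, 4400001 to 4600000 (6.97 points, 12 of 17), had 0. The chromosome 8 window had 16 of 17 pairs wider in dnmt1, with a median shift of 53 bp.

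The 5 windows with the largest width shift each held 4 or more gained peaks. They were chromosome 7, 3000001 to 3200000 (277 bp), the chromosome 9 window (159.5 bp), chromosome 4, 800001 to 1000000 (97 bp), the chromosome 6 window (80 bp) and chromosome 5, 1600001 to 1800000 (57.5 bp). These 5 windows had 10 to 12 pairs each, near the minimum of 10, and medians of few pairs vary more. All overlapped gained blocks, so their pairs were in part those described above. In the 31 windows with 3 or more gained peaks, 24 had a median width shift above 0, with a median over windows of 10 bp. In the 343 windows without a gained peak 176 did, with a median of 1 bp. For rank the corresponding medians were 0.50 and 0.33 points.

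The lowest windows by rank began with chromosome 1, 6200001 to 6400000, at a median rank shift of -9.39 points with 16 of 20 pairs lower. Next were 2 windows of chromosome 13, at 2400001 to 2600000 (-6.81 points) and 4400001 to 4600000 (-5.93 points). The others were 3800001 to 4000000 of chromosome 17 (-6.56 points) and 1600001 to 1800000 of chromosome 1 (-5.68 points).

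By width the lowest were chromosome 3, 1 to 200000 (-46 bp, 20 of 27 pairs narrower), 3 windows at -39 bp and chromosome 12, 8800001 to 9000000 (-38 bp). The windows at -39 bp were 3400001 to 3600000 and 5600001 to 5800000 of chromosome 7, and 3000001 to 3200000 of chromosome 15. The median rank shifts of these 5 lay between -2.36 and -0.45 points.

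Places where peaks merged or parted were most numerous on chromosome 15, with 20 such places. Of these, 10 lay in the 200 kb from 2600001 to 2800000, a stretch with 56 peaks over 98.9 kb in WT and 57 peaks over 105 kb in dnmt1. The widest peak of the WT list, 14599 bp at 2660279 to 2674877, faced 2 dnmt1 peaks that together covered 14400 bp. At 2645304 to 2652542 the reverse held, with 5 WT peaks over 6327 bp facing 1 dnmt1 peak of 7239 bp. The covered length thus differed little at the first of these places and more at the other. In the same stretch 23 of 35 one-to-one pairs were wider and 22 of 35 ranked higher in dnmt1.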

How the data were processed

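The data were H3K27ac ChIP-seq peak lists, 1 per library. Per the submitters' processing notes the tools were MACS2 2.2.7.1, Bowtie2 2.4.2, Trim Galore 0.6.7, deepTools 3.5.1 and Picard. Not given in the sources used here are their settings, the genome build, read depth and the handling of reads with several matches. In the deposited lists each peak has a score, a fold enrichment over input at the summit (a ratio), a −log10 p-value and a −log10 q-value, all the authors' own values; the score and the p-value were not used for results.

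Coordinates are 1-based, from the lists. Partners shared at least 1 bp. Peaks were ranked by −log10 q within their list, and the rank is given as a percentile. Calls were a 1.5-fold change in width, summits over 200 bp apart, or a rank shift of 10 points. Blocks joined 3 or more peaks with gaps of up to 50 kb, and windows were 200 kb. Shares have exact 95% Clopper-Pearson intervals. With 1 library a side no test was made.

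Named were the 10 strongest gained and lost peaks by fold enrichment, the 5 most widened, narrowed, summit-shifted, raised and lowered pairs, blocks of 6 or more, and the 5 highest and lowest windows. Other peaks named, such as those of the broad stretch of chromosome 15, were picked after their values were seen. The comparison and its rules were chosen with earlier results of these data known. Partner rule, q minimum, list length, rank measure, block gap, isolation and sequences were varied. The code was tested on simulated data. The tools used were scipy 1.17.1, pandas 2.3.3, matplotlib 3.10.9 and numpy 2.4.6 in Python 3.11.15.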

Additional observations from a re-analysis of the deposited data

How the results depend on the processing

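No paired analysis was possible because each genotype has 1 library, and for the same reason no library could be left out. Of 80 alternative values for 14 results, 68 stayed within their limits, 12 moved and 0 changed sign. Only the median shifts in width and in rank inside gained blocks could be marked as a change of sign. Which of 2 opposed counts was larger was not part of this check. The limit was a factor of 1.5 for a count, and the 95% interval for a median or a percentage. Counts that stayed could thus still differ widely. Matching peaks by summits within 200 bp instead of by overlap gave 1293 gained peaks, 622 of them in blocks, and 1035 lost peaks. With lists of equal length 339 peaks were lost and 331 gained, so losses outnumbered gains. Pairs 10 points or more lower then outnumbered those higher, at 2402 and 2236. The same held with percentiles over one-to-one partners only, at 2353 and 2324. When both lists were limited to −log10 q values from 10 upward, 42 pairs narrowed, and 116 widened, which counted as stayed. Among partners with no other peak within 1 kb, 49 narrowed and 114 widened. For pairs inside gained blocks the alternatives were chosen after seeing the data. Lists of equal length gave 81 pairs, of which 25.9% widened, with medians of 95 bp and 7.38 points, and neighbours within 20 kb gave 63 pairs. The causes of these moves were not tested. Depth is unknown, and it limits which weak peaks were called in each library.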
